A study of Mus musculus with 6 samples.

Results

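The genes described here encode 8 integrin chains and CD44, adhesion receptors that CD8+ T cells use to enter, cross and stay in tissues: Itgae, Itgb7, Itga4, Itgb1, Itgal, Itgb2, Itgav, Itga6 and Cd44. They were chosen by gene name and are 9 of the 49315 genes in the deposited count table, and all 9 passed the filter on low counts. CD8+ T cells were sorted from tumor-draining lymph nodes of wild-type female C57Bl6/J mice bearing B16F10 melanoma (one field of the sample labels spells the line B26F10), and their RNA was sequenced in bulk. The monotherapy group (n = 3 mice) had 1 dose of HCW9218 under the skin, and the combination group (n = 3 mice) had the same with anti PD1 into the peritoneum. Treatment began at tumor volumes of 50 to 100 mm3 and nodes were taken on day 5. HCW9218 is, by the series title, a complex of TGF-βRII and IL-15. Both groups carried the tumor and received HCW9218, so by design they differ in anti PD1, and no untreated group was analysed here. The libraries also differed in other ways, given below, whose part in the results was not tested.

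Integrins are receptors of 1 alpha and 1 beta chain, and a chain reaches the cell surface only with a partner. Itgae (CD103) pairs with Itgb7 to bind E-cadherin on epithelium. Itga4 pairs with Itgb7 to bind MAdCAM-1 in gut vessels, or with Itgb1 to bind VCAM-1 on inflamed vessels. Itgal and Itgb2 form LFA-1, which binds ICAM-1 and holds T cells to vessels and to antigen-presenting cells. Itgav and Itga6 are alpha chains that can pair with Itgb1, the first in receptors that activate latent TGF-β and the second in laminin receptors. CD44 binds hyaluronan and is high on antigen-experienced T cells.

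Libraries held 34568074 to 40101346 counts. The sort matched its label: Cd8a lay between 1421 and 1646 CPM (reads of a gene relative to all reads, scaled with TMM factors) in the 6 libraries and Cd4 between 0.425 and 3.06 CPM. The libraries differed in the level of long genes against short ones. For this, genes with a mean of at least 10 CPM were ordered by length, and each was centred on its mean. The median of the longest 20% minus that of the shortest 20% was -0.10, 0.10 and 0.15 (log2) in monotherapy replicates 1 to 3. In combination replicates 1 to 3 it was -0.54, -0.03 and 0.43. Dct and Tyrp1, pigment enzymes of melanocytes, had 301 and 281 reads in combination replicate 2 and 377 and 366 in replicate 3, with 0 reads of Dct in the other 4 libraries and 1 read of Tyrp1 in monotherapy replicate 1.

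With the combination, Itgae was lower and Cd44 higher, while the other 7 genes did not pass the test. Itgae fell to 0.582 of its level, from 278 ± 7.77 to 162 ± 11.2 CPM (SD over 3 mice), and Cd44 rose 1.83-fold, from 47.6 ± 3.48 to 87.2 ± 9.53 CPM. Thus 1 of 9 genes was called higher and 1 of 9 lower at an adjusted p under 0.05 by the quasi-likelihood test of edgeR over 15142 genes, where 0.951% of all genes were higher and 0.132% lower, or 1.08% in either direction. The median log2 fold change of the 9 genes was 0.02, against -6e-04 over all genes. In 4 of the 9 (Itgae, Itga4, Itgb2 and Cd44) the CPM of the groups did not overlap, which held for 14.7% of all genes tested. As the RNA is from bulk cells, fewer cells of a type and less RNA per cell cannot be told apart.

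**Figure D1:**
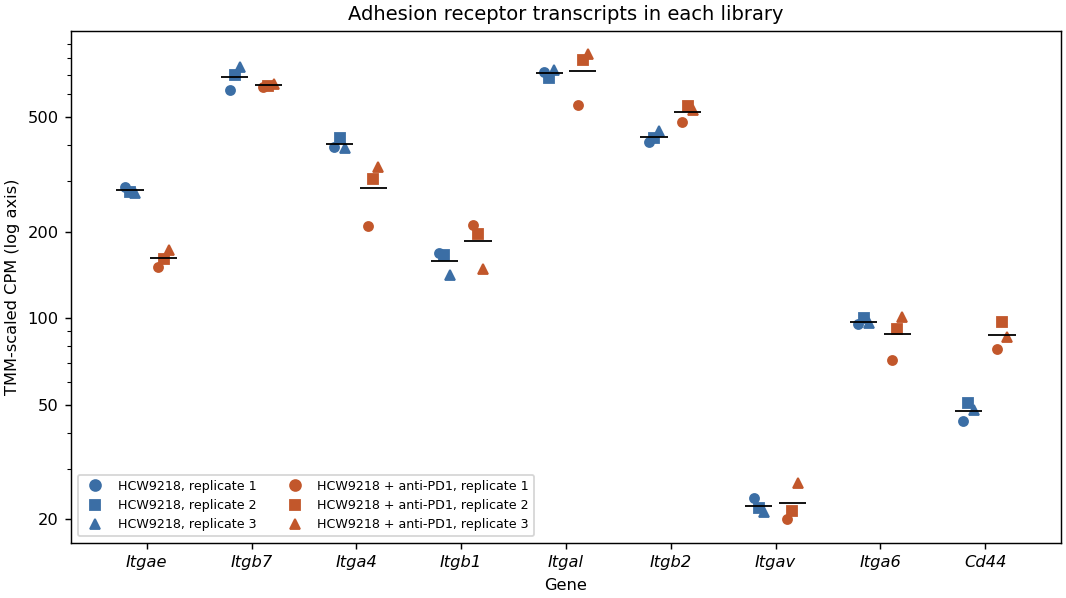
TMM-scaled CPM (log axis) of the 9 genes in each library, with monotherapy in blue, combination in orange, a marker shape per replicate number and a black bar at each group mean (n = 3). Itgae and Cd44 are the genes whose groups are separated most widely, in opposite directions, and combination replicate 1 is the lowest of its group for Itga4 (208 CPM) and Itgal (552 CPM).

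Of the CD103 pair, Itgae passed the test and Itgb7 did not. Itgae (ENSMUSG00000005947, chr11:73090583-73147446, plus strand) had 287, 275 and 272 CPM in monotherapy replicates 1 to 3 and 151, 161 and 173 CPM in combination replicates 1 to 3. Every combination library lay below every monotherapy library, and the spread inside each group was small beside the gap. The log2 fold change was -0.78 ± 0.13 (SE; 95% interval -1.07 to -0.49; edgeR adjusted p = 0.0230). Reads behind these values numbered 4958 to 11273 per library, and the spread between libraries (2.80% and 6.92% of the mean) exceeded the counting error of at most 1.42%. Haspin, a mitotic kinase gene on the opposite strand within the limits of Itgae, shared 0 exon bases with it and had a log2 fold change of -0.12 ± 0.16 (SE; adjusted p = 0.957).

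Itgb7 (ENSMUSG00000001281, chr15:102215995-102231935, minus strand), the partner of both Itgae and Itga4, had 621, 701 and 748 CPM in monotherapy and 638, 643 and 651 CPM in the combination. The combination values lay inside the monotherapy range, with a coefficient of variation of 1.02%. Its log2 fold change of -0.10 ± 0.15 (SE; 95% interval -0.45 to 0.25) did not pass (edgeR adjusted p = 0.967). In each library the log2 ratio of Itgae to Itgb7, in reads per kilobase, was -1.85, -2.09 and -2.20 in monotherapy and -2.82, -2.73 and -2.65 in the combination. The ratio thus separated the groups, with a difference of -0.69 (log2), or 0.621 of its monotherapy level. An exact two-sided permutation test gave p = 0.1, the smallest that 3 against 3 libraries allow (0.16 adjusted over the 8 ratios tested).

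Promoter sequence from RefSeq (GRCm38.p6) was at hand for 5 of the 9 genes, namely Itga4, Itgav, Cd44, Itgb1 and Itgb7. The 250 bases before the start of the gene are printed for Itgb7 and Itgb1, the beta chains that Itga4 shares, and for Cd44, the gene that rose. Capitals mark the SMAD box, GTCTG on either strand, the short element bound by the SMAD proteins that carry TGF-β signals.
Itgb7, chr15:102231936-102232185, minus strand: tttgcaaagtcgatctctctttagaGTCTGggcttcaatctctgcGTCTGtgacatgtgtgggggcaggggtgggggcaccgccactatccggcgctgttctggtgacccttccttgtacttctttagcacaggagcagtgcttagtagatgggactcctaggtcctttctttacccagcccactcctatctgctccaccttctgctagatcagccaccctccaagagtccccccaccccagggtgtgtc
Itgb1, chr8:128685404-128685653, plus strand: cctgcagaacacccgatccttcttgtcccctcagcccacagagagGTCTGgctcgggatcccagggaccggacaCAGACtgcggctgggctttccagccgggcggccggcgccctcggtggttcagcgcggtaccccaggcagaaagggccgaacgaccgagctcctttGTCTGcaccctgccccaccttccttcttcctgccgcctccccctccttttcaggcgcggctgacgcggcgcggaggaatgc
Cd44, chr2:102901666-102901915, minus strand: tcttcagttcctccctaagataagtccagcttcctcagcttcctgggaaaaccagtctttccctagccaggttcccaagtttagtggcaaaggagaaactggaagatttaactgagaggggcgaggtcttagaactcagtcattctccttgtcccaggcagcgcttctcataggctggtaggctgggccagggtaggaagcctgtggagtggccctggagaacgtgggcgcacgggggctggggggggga

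Itgb7 holds the SMAD box 2 times, Itgb1 3 times, Itga4 1 time, and Cd44 and Itgav 0 times, while 42.2% of 32851 promoter stretches of this length hold at least 1. The Cd44 stretch also held none of 6 other short motifs searched on both strands, which were the GC box GGGCGG (32.7% of all stretches), the ETS core GGAAGT (19.7%), the RUNX core TGTGGT (14.0%), the T-box core AGGTGT (11.8%), the AP-1 site TGANTCA (6.75%) and the E-box CAGCTG (13%). A match is a run of letters, and its absence says only that these letters are not in this window.

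Among the alpha 4 chains, Itga4 lay lower without passing. Itga4 (ENSMUSG00000027009, chr2:79255426-79333123, plus strand) had 393, 423 and 392 CPM in monotherapy and 208, 305 and 335 CPM in the combination. The groups did not overlap, and combination replicate 1 was far below the other 2 libraries of its group. The log2 fold change was -0.51 ± 0.19 (SE; 95% interval -0.93 to -0.09; edgeR adjusted p = 0.450), and -0.31 without combination replicate 1. Itga4 has the most exon bases of the 9 genes (13978), and in the combination its order followed that of the long-gene measure. With that measure as a covariate, a choice made after seeing the data, the log2 fold change was -0.47 and passed (edgeR adjusted p = 0.0191). With the melanocyte list as a covariate it was -0.99 and passed too (edgeR adjusted p = 0.0362). The summed level of that list did not overlap between groups, so this last fit cannot tell a melanocyte part from the treatment. Over all settings the adjusted p ran from 0.0191 to 1.00. Cerkl, on the opposite strand, shares 1124 exon bases with Itga4 but had 647 reads in all against 78389.

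Itgb1 (ENSMUSG00000025809, chr8:128685654-128733200, plus strand), the most widely used beta chain, had 168, 166 and 142 CPM in monotherapy and 210, 197 and 148 CPM in the combination. The groups overlapped through combination replicate 3, which lay below monotherapy replicates 1 and 2. Its log2 fold change of 0.22 ± 0.16 (SE; 95% interval -0.14 to 0.59) did not pass (edgeR adjusted p = 0.882). The log2 ratio of Itga4 to Itgb1 went from -0.43 ± 0.12 to -1.18 ± 0.60 (SD, n = 3 each), and that of Itga4 to Itgb7 from -3.12 ± 0.14 to -3.56 ± 0.35. Neither ratio overlapped between groups (exact permutation p = 0.1 and adjusted p = 0.16 for each), and the combination libraries were the more spread in both. Combination replicate 1 carried much of both differences: without it that of Itga4 to Itgb1 went from -0.75 to -0.44 and that of Itga4 to Itgb7 from -0.44 to -0.24. In the combination both ratios rose from replicate 1 to 3 (-1.79, -1.14 and -0.60 for Itgb1), the order of the long-gene measure. Itgb1 and Itgb7 have 4081 and 2743 exon bases, fewer than Itga4, and the part of length in these ratios was not tested.

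The LFA-1 chains were abundant and did not pass. Itgal (ENSMUSG00000030830, chr7:127296260-127335138, plus strand) had 716, 681 and 731 CPM in monotherapy and 552, 789 and 825 CPM in the combination. The combination libraries lay on both sides of the monotherapy libraries, with replicate 1 the lowest of all. The log2 fold change was 0.02 ± 0.19 (SE; 95% interval -0.40 to 0.45; edgeR adjusted p = 0.990), and its sign changed with the library left out. Itgb2 (ENSMUSG00000000290, chr10:77530252-77565708, plus strand), the CD18 beta chain, had 410, 424 and 448 CPM in monotherapy and 480, 547 and 529 CPM in the combination. Its groups did not overlap, with every combination library above every monotherapy library. The log2 fold change of 0.28 ± 0.14 (SE; 95% interval -0.04 to 0.60) did not pass (edgeR adjusted p = 0.718). The log2 ratio of Itgal to Itgb2 was -0.37 ± 0.07 in monotherapy and -0.65 ± 0.23 in the combination (SD, n = 3 each; exact permutation p = 0.1, adjusted p = 0.16). Without combination replicate 1 the difference of -0.28 became -0.15.

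Itgav and Itga6 had the lowest CPM of the 8 integrin chains among the 9 genes. Itgav (ENSMUSG00000027087, chr2:83724397-83806916, plus strand) had 23.7, 21.9 and 21.3 CPM in monotherapy and 19.99, 21.4 and 26.8 CPM in the combination, so the groups overlapped. It had a log2 fold change of 0.03 ± 0.15 (SE; 95% interval -0.30 to 0.36; edgeR adjusted p = 0.987). Itga6 (ENSMUSG00000027111, chr2:71745616-71858416, plus strand) had 95.7, 100.2 and 96.1 CPM in monotherapy and 71.9, 91.6 and 100.8 CPM in the combination. Combination replicate 1 was again the low library, and the log2 fold change of -0.14 ± 0.15 (SE; 95% interval -0.47 to 0.19) did not pass (edgeR adjusted p = 0.935). Their log2 ratios to Itgb1 differed between groups by -0.19 and -0.37, with overlapping values (exact permutation p = 0.5 and 0.4; adjusted p = 0.5 and 0.457). Without combination replicate 1 the differences were -0.0078 and -0.13, and without combination replicate 3 -0.47 and -0.63.

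Cd44 (ENSMUSG00000005087, chr2:102811141-102901665, minus strand) rose. It had 43.9, 50.8 and 48.1 CPM in monotherapy and 78.5, 97.4 and 85.8 CPM in the combination. All 3 combination libraries were above all 3 monotherapy libraries. The log2 fold change was 0.87 ± 0.13 (SE; 95% interval 0.57 to 1.17; edgeR adjusted p = 0.0161). Combination replicate 1, with 0 reads of Dct and of Tyrp1, had 78.5 CPM. Combination replicates 2 and 3, with reads of both, had 97.4 and 85.8 CPM. The part of tumor RNA in these values was not tested. Without combination replicate 1 the log2 fold change was 0.96 (edgeR adjusted p = 7.77e-03). Counts per gene do not separate the standard form of CD44 from its splice variants.

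**Figure D2:**
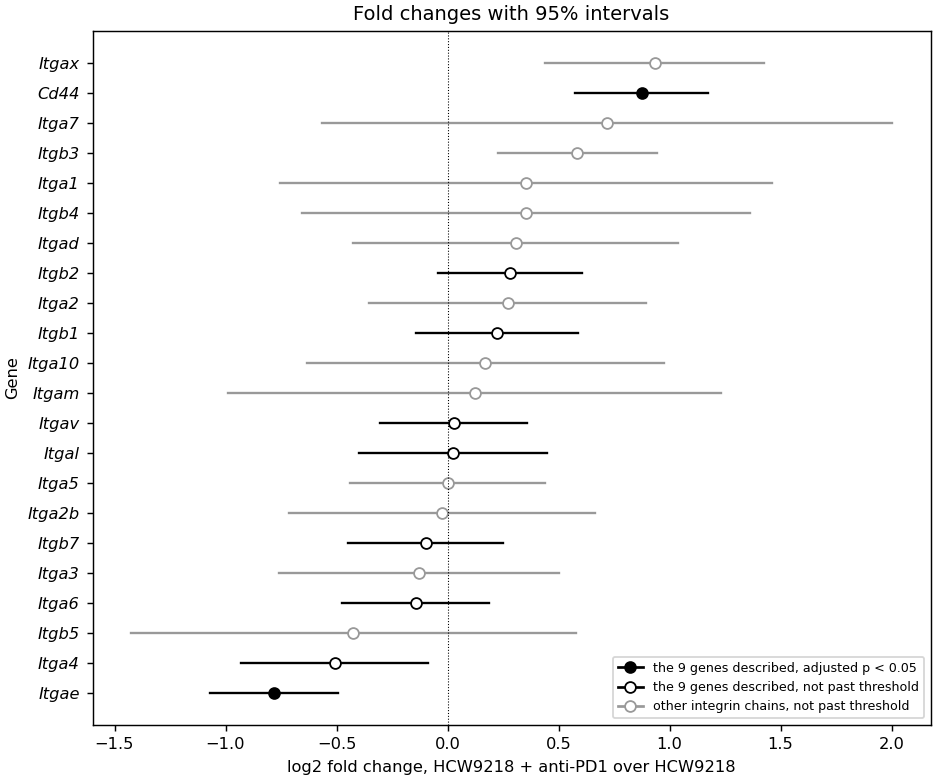
Log2 fold change of combination over monotherapy (x axis) with 95% intervals for the 9 genes (black) and the 13 other integrin chains tested (grey), where filled points passed an adjusted p of 0.05. Itgae at -0.78 and Cd44 at 0.87 are the filled points, and Itgax lies higher (0.93) with a wider interval and did not pass.

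The calls of both genes depended on which library was left out. Without combination replicates 1 and 3 both calls held, with adjusted p of 0.0302 and 0.0068 for Itgae and 0.0078 and 0.0056 for Cd44. Without monotherapy replicates 1, 2 and 3, the adjusted p of Itgae was 0.157, 0.148 and 0.144 and that of Cd44 0.125, 0.0885 and 0.117, while without combination replicate 2 they were 0.156 and 0.0847. The log2 fold changes in the 6 fits with 1 library left out ran from -0.83 to -0.71 for Itgae and from 0.80 to 0.96 for Cd44. A covariate for the B cell list ended both calls (edgeR adjusted p = 0.0936 and 0.0509) with log2 fold changes of -0.78 and 0.83. That covariate is the summed level of the list and includes Cd22, a gene itself called higher (below). Scaling by library totals ended the call of Itgae (edgeR adjusted p = 0.0756). Thus the size of both differences was similar in every setting tried, while the calls were not.

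**Figure D3:**
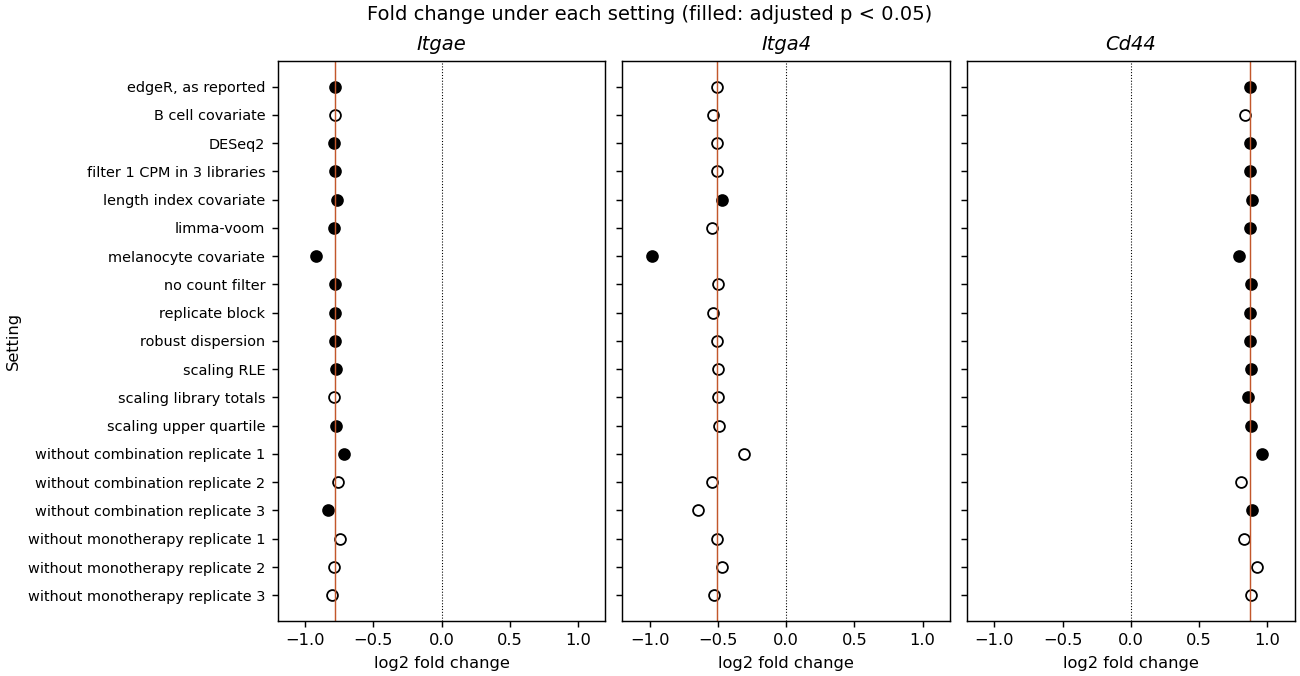
Log2 fold change (x axis) of Itgae, Itga4 and Cd44 under the reported fit and 18 other settings (rows), with filled points where the adjusted p was under 0.05 and an orange line at the reported value. Itgae stays between -0.92 and -0.71 and Cd44 between 0.80 and 0.96, whereas Itga4 runs from -0.99 to -0.31.

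Set against each other in the same libraries, Itgae and Cd44 gave the widest separation of the 8 ratios. The log2 ratio of Itgae to Cd44 in reads per kilobase was 3.27, 3.00 and 3.06 in monotherapy and 1.51, 1.29 and 1.58 in the combination. This is a difference of -1.65, so that the ratio was 0.318 of its monotherapy level (exact permutation p = 0.1, adjusted p = 0.16). Leaving out any 1 library kept it between -1.71 and -1.57. A ratio within a library does not depend on how libraries are scaled. This one joins the genes already called in opposite directions. In the combination every ratio but this one rose from replicate 1 to 3, the order of the long-gene measure. In monotherapy those of Itga4, Itga6 and Itgb7 to Itgb1 did so. The part of gene length in the ratios was not tested.

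**Figure D4:**
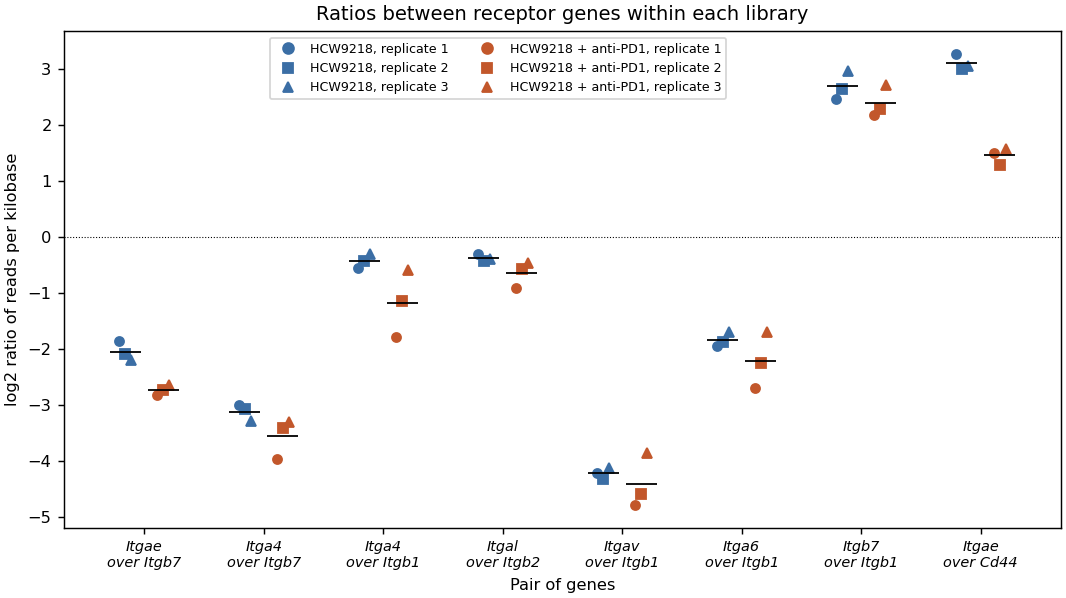
Log2 ratio of reads per kilobase between gene pairs (y axis) in each library, with monotherapy in blue, combination in orange and a black bar at each group mean (n = 3). For Itgae over Cd44 the combination libraries lie between 1.29 and 1.58 and the monotherapy libraries between 3.00 and 3.27, while for Itgav and Itga6 over Itgb1 the groups overlap.

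Levels can be compared between genes only per length, so they are given as reads per kilobase of exon at equal library size (RPKM). In monotherapy the order was Itgb7 (251 ± 23.5), Itgb2 (140.0 ± 6.36), Itgal (108 ± 3.90), Itgae (60.7 ± 1.70), Itgb1 (38.9 ± 3.58), Itga4 (28.8 ± 1.24), Itga6 (10.8 ± 0.271), Cd44 (7.02 ± 0.514) and Itgav (2.08 ± 0.114 RPKM; SD, n = 3 each). No neighbours in that order overlapped in their ranges. In the combination Itgb1 (45.4 ± 7.98 RPKM) stood above Itgae (35.3 ± 2.44 RPKM), with overlapping ranges, and Cd44 (12.9 ± 1.41 RPKM) above Itga6 (9.76 ± 1.64 RPKM), with ranges that did not overlap. The other 5 genes kept their places.

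As shares of all 18 integrin alpha chains in RPKM, Itgae made up 28.8%, 28.3% and 27.4% in monotherapy and 22.3%, 18.1% and 18.2% in the combination. Itgal made up 50.2%, 48.8% and 51.4% and then 57.0%, 61.6% and 60.3%. Both shares separated the groups, and since shares sum to a whole, a lower share of one chain raises the others. The share of Itga4 was 13.4% ± 0.750 and 10.96% ± 0.736 (SD, n = 3 each). Of the 8 beta chains, Itgb7 had 57.8% ± 1.87 and 51.5% ± 1.198, Itgb2 32.2% ± 0.743 and 37.2% ± 1.74, and Itgb1 9.0% ± 1.31 and 9.95% ± 1.80. The beta pool thus moved from Itgb7 towards Itgb2, without overlap between groups for these 2 chains, though neither passed the test of its own level.

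**Figure D5:**
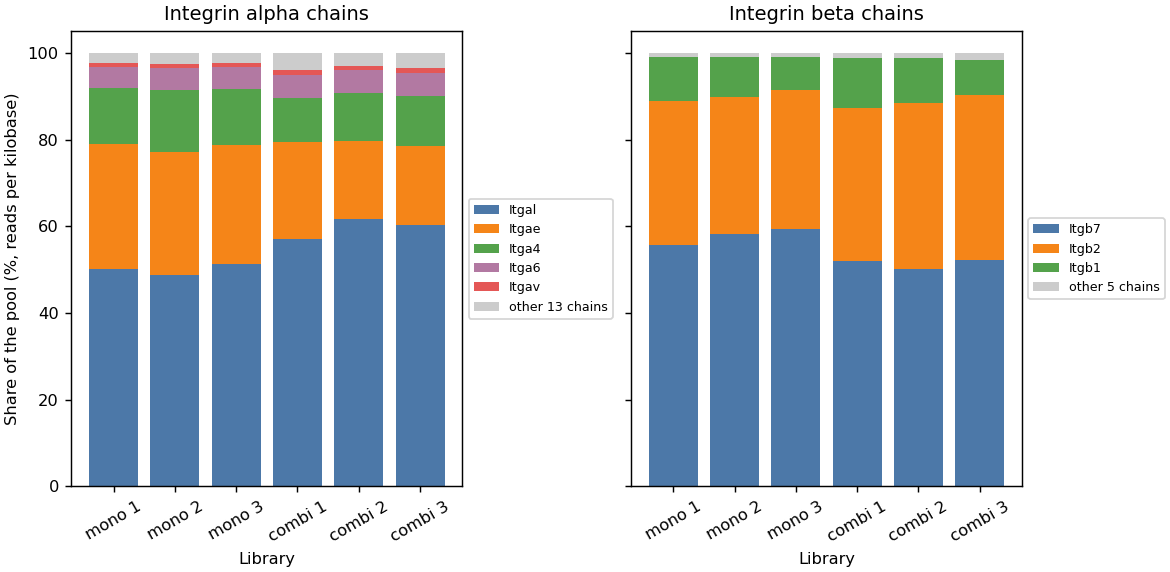
Share of integrin alpha chains (left) and beta chains (right) in reads per kilobase (y axis, %), as stacked bars for each library. The orange Itgae part is 27.4% to 28.8% in monotherapy and 18.1% to 22.3% in the combination, and the blue Itgb7 part is 55.8% to 59.5% and 50.1% to 52.2%.

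Of 19 other integrin chain genes, 13 were tested and 0 passed in edgeR. Among them 2 had an unadjusted p under 0.05, as had 1211 of the 15142 genes tested, while DESeq2 called 1 higher and limma-voom 0. Their median log2 fold change was 0.27, and 10 of 13 lay above 0, as did 7549 of all 15142 genes tested. The median was not stable. It was -0.23 with the melanocyte covariate, and 0.06 over 16 chains tested without monotherapy replicate 1. Itgax, the CD11c chain of dendritic cells and of some activated CD8+ T cells, had 3.44 ± 0.395 and 6.58 ± 1.33 CPM (SD over 3 mice each), with a log2 fold change of 0.93 ± 0.22 (SE; edgeR adjusted p = 0.114). Itgb3, a partner of Itgav, was the one other chain above 10 CPM in either group, at 23.5 ± 0.803 and 35.3 ± 7.12 CPM (0.59 ± 0.16; adjusted p = 0.195). Both were higher in every combination library than in any monotherapy library. Itga7 and Itga2 had log2 fold changes of 0.72 ± 0.57 and 0.27 ± 0.28 (SE) with overlapping groups.

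Integrins are switched on from inside the cell by Rap1 signalling, talin and kindlin. Of 30 tested genes of this machinery, 1 rose, 0 fell and 29 did not pass, against 0.951% higher and 0.132% lower over all genes. The median log2 fold change of the 30 was 0.02. The gene that rose was Rap1gap2, which encodes a protein that turns Rap1 off, from 5.72 ± 0.619 to 14.5 ± 2.78 CPM (SD, n = 3 each; log2 fold change 1.34 ± 0.19 (SE), edgeR adjusted p = 0.0107). Rap1gap2 no longer passed when any 1 monotherapy replicate was left out. Lims1, Zyx and Rasgrp2, next in order of p, had log2 fold changes of 0.39 ± 0.13, 0.36 ± 0.14 and 0.37 ± 0.15 (SE) and adjusted p of 0.395, 0.538 and 0.550 in edgeR. The first 2 encode adaptors at integrin contacts and the third an exchange factor that turns Rap1 on.

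The sorted cells also held transcripts of some ligands of these receptors. Of 22 ligand genes 12 were tested and 0 passed in edgeR. An unadjusted p under 0.05 was found for 2 of them, and for 1211 of all 15142 genes tested. DESeq2 called 1 gene lower and limma-voom 0. Cdh1, which encodes the CD103 ligand E-cadherin, had 4.58 ± 0.877 and 2.07 ± 0.544 CPM (SD over 3 mice each), with a log2 fold change of -1.15 ± 0.27 (SE; edgeR adjusted p = 0.112). Vcam1 and Tgfb3 had under 1 CPM in both groups, and Tgfb1 had 79.2 ± 11.8 and 89.8 ± 7.05 CPM. Among 14 tested partners of CD44, such as the proteins that tie it to actin, 0 passed in edgeR, 1 (Ank3) had an unadjusted p under 0.05, and DESeq2 and limma-voom each called 0. Cd74, Srgn and Adam17, next by p, had log2 fold changes of -0.69 ± 0.38, 0.40 ± 0.30 and 0.15 ± 0.13 (SE).

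Of 21 genes that go with CD103 in tissue-resident CD8+ T cells, 0 passed in edgeR, 9 had an unadjusted p under 0.05 (8 with a fold change below 0, and P2rx7 at 0.70) and 16 in all lay below 0. Their median log2 fold change was -0.30. Over all genes tested, 1211 of 15142 had an unadjusted p under 0.05 and 7593 lay below 0. DESeq2 called 1 lower and limma-voom 0, and with the long-gene covariate 6 were lower. Gpr55, Smurf2 and Rgs2 had log2 fold changes of -0.53 ± 0.15, -0.35 ± 0.12 and -0.83 ± 0.28 (SE), with edgeR adjusted p of 0.20, 0.357 and 0.376. Smurf2 encodes a ligase that limits TGF-β signalling and Gpr55 a lipid receptor that resident cells carry. The list thus mixes residency genes with genes of TGF-β feedback, and Smurf2, Skil, Smad7 and Tgif1 of the latter were among the 8. Cxcr6 and Xcl1 lay near 0 (-0.06 and -0.04). The 5 genes above 0 were Cd101 (0.09), Runx3 (0.26), Prdm1 (0.32), Itga1 (0.35) and P2rx7. Cdh1 is also in this list.

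Genes that mark CD44-high CD8+ T cells rose in part. Of 19 tested, 7 rose, 0 fell and 12 did not pass, all 19 had a log2 fold change above 0, and the median was 0.92. Several of these genes were known to rise in these libraries when the list was written, so the count is a description. Over all genes tested, 0.951% were higher and 7549 of 15142 had a log2 fold change above 0. The 7 were Ccr2, S100a6, Gzmm, Cxcr3, Tbx21, Anxa2 and Ccl5, with log2 fold changes from 0.92 to 2.37. S100a6, a calcium-binding protein, had 7.05 ± 0.646 and then 30.6 ± 7.48 CPM (SD over 3 mice), and the chemokine receptor Cxcr3 48.3 ± 1.89 and 91.6 ± 1.53 CPM. Whichever monotherapy replicate was left out, 4 were called. With no count filter 11 were called, with the melanocyte covariate 11, and with the long-gene covariate 12.

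By root mean square distance of centred log2 CPM over the 6 libraries, among 8063 genes of at least 10 CPM, the genes most like Itgae were Spsb1 (0.06), Gbp10 (0.11), Mtss1 (0.11) and Egr1 (0.12). Those most like Cd44 were Chsy1 (0.10), Cxcr3 (0.11), Cxcr5 (0.11) and Tnfsf14 (0.13). For scale, the root mean square of Itgae and Cd44 themselves was 0.40 and 0.45. The distances describe these libraries only, since nearness was measured on the same values that separate the groups.

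Markers of other cells that carry these receptors were mostly low, and some moved with the groups. The summed CPM of 10 B cell genes was 46.3 to 69.3 in monotherapy and 49.7 to 89.3 in the combination. Of these, Cd22 alone passed, and it rose (log2 fold change 1.44 ± 0.24 (SE), edgeR adjusted p = 0.0244). Cd79b and Cd22 were on average the largest parts of the sum. Cd79b had 22.4 ± 2.00 and 23.6 ± 6.51 CPM, and Cd22 8.33 ± 2.15 and 22.5 ± 5.46 CPM (SD over 3 mice each). The B cell covariate, built from this sum, thus includes a gene that moved with the groups. In 8 of the 10 the log2 fold change was below 0, and the median was -0.47. Of 8 NK and innate lymphoid genes, all with reads, the sum was 8.49 to 9.93 and 14.5 to 24.5 CPM, where Klre1 rose (log2 fold change 1.65 ± 0.25 (SE), edgeR adjusted p = 0.0161) and Ncr1, a defining NK gene, stayed under 1 CPM in each library. For 8 melanocyte genes, all with reads, it was 21.9 to 28.7 and 30.3 to 55.9 CPM. Pmel made up nearly all of this sum in the monotherapy libraries and in combination replicate 1 (29.05 of 30.26 CPM). In that replicate Dct, Tyrp1, Mlana, Tyr, Sox10 and Slc45a2 had 0 reads. The groups overlapped for Pmel (log2 fold change 0.18 ± 0.16 (SE), edgeR adjusted p = 0.924). For 7 platelet and red cell genes, with Ppbp at 0 reads, the sum was 2.27 to 6.71 and 0.950 to 1.76 CPM. The last 3 sums did not overlap between groups, and their part in the differences of Itgae and Cd44 was not tested. With the melanocyte sum as a covariate, Itgae had -0.92 (edgeR adjusted p = 0.0243) and Cd44 0.80 (edgeR adjusted p = 0.0414). As that sum did not overlap between groups, the fit cannot tell a melanocyte part from the treatment. Sums of 10 monocyte and macrophage genes (8.74 to 21.1 and 11.3 to 14.2 CPM), 10 dendritic cell genes (202 to 266 and 165 to 222 CPM) and 10 stromal and vessel genes, with Ccl19 and Ccl21a at 0 reads (137 to 172 and 120 to 140 CPM), overlapped; Ccr9 and Pecam1, which T cells also express, made up most of the last 2 sums.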

How the data were processed

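The submitters' processing notes name STAR (2.5.2b), Subread (1.5.2), featureCounts and DESeq2, while settings, strand use and build were not given in the sources used here. Counts as deposited are whole reads per gene, not normalized, and the table of the series equalled the own file of each library in 6 of 6. A further 6 columns matched no sample and were not used. Of 49056 genes found in GENCODE M21 (GRCm38), 91.4% had the same position.

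In R 4.3.3, edgeR 4.0.16 was run with filterByExpr, TMM factors (0.901 to 1.12) and a quasi-likelihood F-test with no covariate, and Benjamini-Hochberg adjustment over 15142 genes at a threshold of 0.05. Standard errors are the coefficient over the square root of F, and 95% intervals use the t distribution with the fit's degrees of freedom. Ratios (pseudocount 0.5 count, lengths per the file headers) were compared by exact two-sided permutation in scipy 1.17.1. DESeq2 1.42.0 and limma 3.58.1 were alternatives. Where a symbol had 2 identifiers (Itgam), the one with more reads was used.

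The members and lists were chosen with earlier results of these data known; some genes of the lists are not reported here and were left out of the lists' counts and sums. Named genes are the 9 members, other integrin chains with at least 10 CPM, the genes of each list that passed or, up to 4, had the smallest p, and 4 genes most like Itgae and Cd44 with clone-style names and receptor segments left out. In the list of genes that go with CD103, further genes are named to show both directions. Of the marker lists of other cells only those that passed or that describe the list are named. Same-numbered replicates were not treated as paired. Across 8379 genes, correlations of their deviations from the group mean were 0.371, -0.458 and 0.571, which do not settle whether they pair. Counting limits cover counting error only.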

Additional observations from a re-analysis of the deposited data

How the results depend on the processing

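Depth did not limit the 9 genes, since their counting error was at most 3.90%. Over all genes 144 were higher and 20 lower, and these counts became 64 and 4 with a B cell covariate, 258 and 59 in DESeq2, 340 and 113 with no count filter, 231 and 57 with a replicate block, 574 and 317 with a melanocyte covariate, and 373 and 187 with the long-gene covariate, which was added after seeing the data. Leaving out 1 library gave 32 to 233 higher and 2 to 49 lower. Among the 9 genes, the 1 higher became 0 with the B cell covariate and 0 to 1 with 1 library left out. The 1 lower became 0 with the B cell covariate, 0 with library totals, 2 with the melanocyte covariate, 2 with the long-gene covariate, and 0 to 1 with 1 library left out. Itgae and Cd44 were both called, alone, in 10 of 18 settings, the replicate block among them. The replicate block, with numbers not known to pair the samples, changed the call of none of the 9 genes.

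Signs changed only in uncalled genes. Itgal had log2 fold changes of -5e-04 with the B cell covariate, -2.3e-03 in limma-voom, -0.44 with the melanocyte covariate, and -0.0817 to 0.21 with 1 library left out. Itgav had -0.26 with the melanocyte covariate and -0.11 to 0.13 with 1 library left out, and Itga6 had -0.25 to 4.2e-03. The cause was not tested. All 8 ratios kept their sign in the 8 settings run for them, with exact p of 0.1 to 1.0, and none could pass at these sizes. Those settings were a pseudocount of 5, the replicate block and each library left out, and no covariate was applied. Itgav over Itgb1 came to -0.0078 without combination replicate 1.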
